A study of Mus musculus with 31 samples.

Results

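Transcripts of 4 genes of the lung epithelium, the surfactant protein genes Sftpc, Sftpb and Sftpa1 and the club cell secretoglobin gene Scgb1a1, were followed in the brains of 31 mice. The members are the array rows that carry these gene symbols, 4 of the 35972 genes on the array, of which 2 (Sftpc and Scgb1a1) passed the filter on dim probes that left 25173 genes. The members were chosen by their measured levels: an earlier look at the same arrays had shown a wide range of Sftpc between mice. Their levels and their co-variation are therefore a description, with no test.

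Surfactant is the film of lipid and protein that lowers surface tension in the air spaces of the lung. Alveolar type 2 cells make it, and Sftpc and Sftpb encode its small hydrophobic proteins, whereas Sftpa1 encodes a collectin that binds lipids and microbes. Club cells, secretory cells of the bronchioles, release the product of Scgb1a1, also called uteroglobin. All of these genes are in common use as markers of lung epithelium.

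The mice were female C57BL/6, aged 6 weeks, and each was anaesthetised with xylazine and ketamine and given 200 µl into a tail vein. The injection held physiological serum (14 mice) or oleic acid at 1.2 µl per g (17 mice), a fatty acid used to injure the lung. Brains were taken after 1 h and 1.5 h (3 serum and 3 oleic acid mice each), after 3, 4 and 24 h (2 and 3 each) and after 18 h (2 and 2). Total brain RNA, 200 ng per mouse, was labelled with Cy3 and hybridised to 1 Agilent array per mouse; perfusion and dissection are not given in the sources used here. A level is the log2 of the Cy3 signal of a probe over the 75th percentile of its array, so a step of 1 is a doubling, and levels of different probes are not comparable with each other.

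The arrays lay on 5 slides, with 54.3% to 76.3% of spots well above background and a 75th percentile of processed intensity between 306 and 813. All 10 brain cell markers examined, among them Cx3cr1 and P2ry12 of microglia and Syt1 of synapses, were well above background in every brain, and the widest span among them was 2.08. The RNA is from whole tissue, in which fewer cells of a type and less RNA per cell cannot be told apart.

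Each member is read through a probe of 60 bases, and the first 30 bases of the probe that stood for the gene are printed here to show what the signals report.
Sftpc: ggagagctaccactctactatatctagcat
Sftpb: accccttgctaacatttctatgaaatccaa
Sftpa1: catcgcaagcattacaaagaagtacaacac
Scgb1a1: tgaagctcactggatttcagagatattcta
On mm9 the Sftpc probe lies at chr14:70920899-70921159 on the minus strand, a span of 261 bases for 60 bases of probe, so that its sequence is split over the genome as that of a spliced transcript is. The Sftpa1 probe lies at chr14:41947507-41947566 and the Sftpb probe at chr6:72264305-72264364, both on the plus strand. The Scgb1a1 probe lies at chr19:9158197-9158256 on the minus strand and was printed in 10 spots on every array. A second Sftpb probe, at chr6:72257183-72259754, was well above background in 1 brain only and was not used for levels.

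The 250 bases before the start of the gene are printed where the RefSeq promoter table, which is on GRCm38.p6, held an entry (Sftpa1 and Sftpb, both on the plus strand). Capitals mark CTCAAG, the core of the site bound by NKX2-1, a transcription factor of lung epithelium, and TATAAA, the TATA box.
Sftpa1, chr14:41131538-41131787: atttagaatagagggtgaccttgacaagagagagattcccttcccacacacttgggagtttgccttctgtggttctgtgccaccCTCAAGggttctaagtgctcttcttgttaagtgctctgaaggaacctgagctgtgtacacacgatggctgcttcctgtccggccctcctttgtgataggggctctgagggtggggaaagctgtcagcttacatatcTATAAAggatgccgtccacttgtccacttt
Sftpb, chr6:72304360-72304609: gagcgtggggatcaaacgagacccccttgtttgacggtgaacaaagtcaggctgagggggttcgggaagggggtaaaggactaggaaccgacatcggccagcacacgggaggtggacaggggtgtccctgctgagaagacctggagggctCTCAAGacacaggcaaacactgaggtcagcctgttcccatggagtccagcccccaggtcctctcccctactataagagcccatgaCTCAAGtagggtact
CTCAAG stood 166 bases before the start of Sftpa1, and 100 and 15 bases before that of Sftpb. TATAAA stood 30 bases before the start of Sftpa1, and the FOXA letters TGTTTAC were in neither window. Searched on both strands, 13.3% of 32851 windows of that length held CTCAAG, 12.4% TATAAA and 3.17% TGTTTAC. A match is a description of the letters only, and its part in the levels of the members was not tested.

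Sftpc, whose product is the surfactant protein most restricted to alveolar type 2 cells, was well above background in all 31 brains and spanned 5.31 log2 units, a 39.6-fold range. In serum mice at 1 h it stood at 2.71, 3.65 and -0.61 (replicates 1, 2 and 3), and in oleic acid mice at 1 h at -0.65, -1.65 and -0.16. The highest 2 brains of the series and a brain below the median thus came from the same group, all 3 on slide 1. At 1.5 h the serum mice stood at 0.88, 0.52 and -0.45 and the oleic acid mice at -0.65, 0.29 and -0.87. At 3 h the serum mice stood at -0.18 and -0.42, and the oleic acid mice at 2.00, -0.90 and -0.20. Replicate 1 of oleic acid at 3 h was the third highest brain of the series, and the other mice of its group lay below 0. At 4 h the serum mice stood at -1.06 and -1.36 and the oleic acid mice at -0.58, -0.35 and -0.39. At 18 h the values were 0.33 and -0.31 in serum and 0.03 and -0.31 in oleic acid mice. At 24 h they were -1.03 and -0.57 in serum and -0.94, 0.27 and 0.31 in oleic acid mice. Apart from the 3 high brains, all levels lay between -1.65 and 0.88.

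Sftpb, which encodes the protein that spreads surfactant lipid into a film, was well above background in 11 brains, 4 of 14 from serum and 7 of 17 from oleic acid mice. In serum mice at 1 h it stood at -1.68 and -0.72, and was not well above background in replicate 3, at -6.10. The next highest brain was replicate 1 of oleic acid at 3 h, at -2.71. The 3 brains that led in Sftpc therefore led in Sftpb, in the same order. The other 8 brains above background lay between -5.55 and -4.05, and the 20 that were not lay between -7.46 and -5.20.

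Sftpa1, whose product is the collectin of surfactant, was also well above background in 11 brains, 6 of 14 from serum and 5 of 17 from oleic acid mice. It stood at -1.88 and -0.94 in replicates 1 and 2 of serum at 1 h and at -3.09 in replicate 1 of oleic acid at 3 h. Replicate 3 of serum at 1 h, at -7.64, was not well above background. The order of the 3 highest brains was again the same, and 9 brains were above background for both Sftpa1 and Sftpb. Replicate 2 of serum at 3 h departed from the pattern, with Sftpa1 above background at -3.35, Sftpb not above it at -5.22 and Sftpc at -0.42.

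Scgb1a1, the secretoglobin of club cells, had the widest span of the 4 genes, 8.28 log2 units, and at least 6 of its 10 spots were well above background in all 31 brains. In serum mice at 1 h it stood at 2.39, 3.18 and -1.32, and in oleic acid mice at 1 h at -1.35, -5.10 and -0.96. At 1.5 h the values were 1.05, 0.49 and -0.14 in serum and -0.67, 0.52 and -1.05 in oleic acid mice. At 3 h they were -0.44 and -1.52 in serum and 2.17, -1.53 and -1.50 in oleic acid mice. The 3 brains at the top were those of the surfactant genes. At 4 h the serum mice stood at -2.88 and -5.10 and the oleic acid mice at -0.49, -0.31 and -0.69. At 18 h the values were -0.79 and -1.25 in serum and -0.04 and -0.78 in oleic acid mice. At 24 h they were -3.53 and -1.15 in serum and -1.72, -0.03 and -0.10 in oleic acid mice. Scgb1a1 thus also had a low end, formed by replicate 2 of oleic acid at 1 h, replicate 2 of serum at 4 h and replicate 1 of serum at 24 h, which came from 3 slides. The 10 spots of an array gave the error between spots only, since no brain was labelled or hybridised again. Their SD had a median of 0.089. It was 0.53, 0.82 and 0.49 in those low brains, where 7, 6 and 10 of the 10 spots were well above background.

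**Figure D1:**
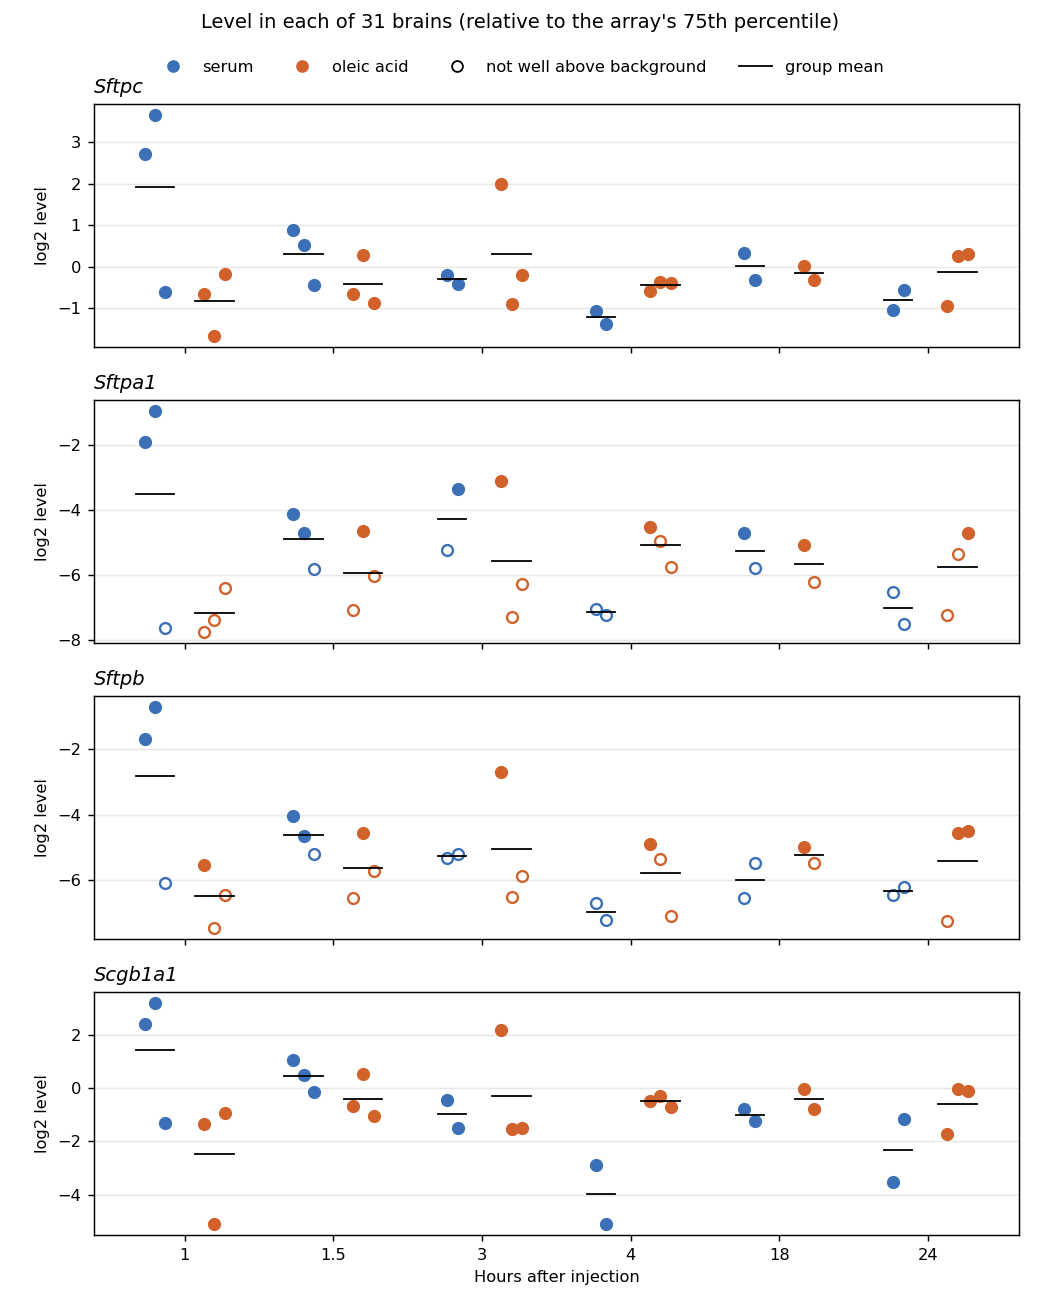
Level of each gene in each of the 31 brains (y axis, log2 signal relative to the 75th percentile of the array) by hours after injection (x axis, categories). Points are mice, blue for serum and orange for oleic acid, open where the gene was not well above background, and lines are group means. The same 3 brains, 2 of serum at 1 h and 1 of oleic acid at 3 h, are highest in all 4 panels.

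Mice of the same group differed widely, with a pooled SD within groups of 1.00 for Sftpc and 1.47 for Scgb1a1. Differences between mice of 1 group held 49.9% of the sum of squares of Sftpc over the 31 brains, 52.9% for Sftpb, 57.7% for Sftpa1 and 42.8% for Scgb1a1. Within slides lay 83.4% (Sftpb) to 89.4% (Scgb1a1) of it. Such shares depend on the number and size of groups and slides, and were not set against shuffled groupings. A limma F-test of slide, added to the group means, gave an adjusted p of 0.923 for Sftpc and 0.814 for Scgb1a1, where 9.54% of genes passed. In the table without the filter, where 7.36% passed, it gave 0.911 for Sftpa1 and 0.935 for Sftpb. The SD of Sftpc over all brains was exceeded by 231 of the 25173 genes tested.

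Across the 31 brains the members rose and fell together. Sftpc correlated with Sftpb at a Pearson r of 0.93 (Spearman rho 0.78), with Sftpa1 at 0.87 (0.79) and with Scgb1a1 at 0.87 (0.86). Without the 2 brains farthest from the median of Sftpc, r was 0.83, 0.76 and 0.86. After subtraction of slide means r was 0.92, 0.89 and 0.88, and after subtraction of group means 0.89, 0.91 and 0.89. The co-variation therefore stood after either subtraction, with the highest brains included. Values within slides or groups were not computed without those brains. Among the 11 brains where Sftpb was above background r with Sftpc was 0.99, and among the 11 for Sftpa1 it was 0.87. Scgb1a1 correlated with Sftpb at 0.85 and with Sftpa1 at 0.77. Over all genes tested the median r with Sftpc was -0.03, with 90% of genes between -0.28 and 0.24. The points share whole brains, arrays and slides, and no p is given because the genes were listed for this pattern.

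**Figure D2:**
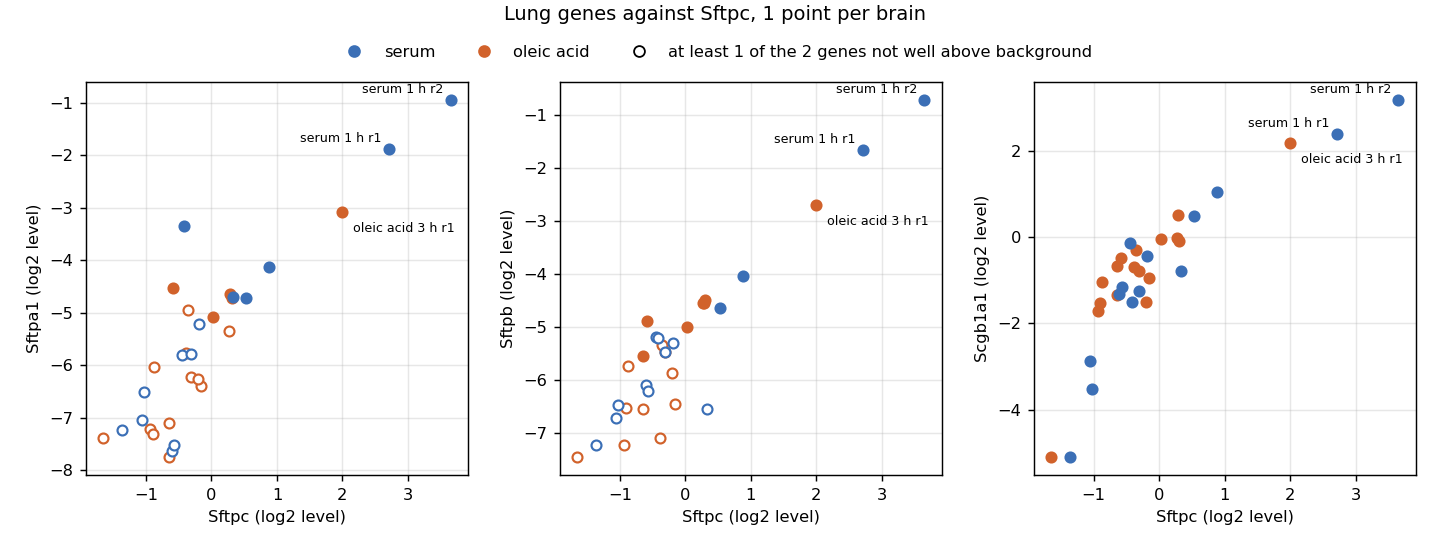
Sftpa1, Sftpb and Scgb1a1 (y axes, log2 level) against Sftpc (x axis, log2 level), with 1 point per brain, blue for serum and orange for oleic acid, open where at least 1 of both genes was not well above background. The 3 labelled brains lie at the top right of each panel, and Scgb1a1 falls away below the other brains in 4 brains at the lower left.

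The genes closest to each member were found among all genes tested. For Sftpc the 5 highest were Cbr2 (r 0.88), a carbonyl reductase abundant in lung, Scgb1a1 (0.87), Hp (0.81), which encodes haptoglobin, Bhmt (0.78), a liver methyltransferase, and Hpx (0.74), which encodes haemopexin. Only Cbr2, Scgb1a1 and Hp exceeded 0.8 among the 25173 genes. For Sftpb they were Sftpc (0.93), Scgb1a1 (0.85), Cbr2 (0.77), Bhmt (0.73) and Hp (0.68). For Sftpa1 they were Sftpc (0.87), Cbr2 (0.78), Scgb1a1 (0.77), Itih4 (0.71) and Cyp2b10 (0.70), the last being a cytochrome P450 gene. The nearest genes of the surfactant members were thus lung transcripts first, followed for the most part by transcripts made mainly by liver. For Scgb1a1 they were Sftpc (0.87), Alb (0.81), which encodes serum albumin, the antitrypsin genes Serpina1e (0.80) and Serpina1a (0.80), and Kng1 (0.80), which encodes kininogen. The 2 Serpina1 genes are near copies of each other, and their probes may share signal.

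Which brains carried these correlations differed between the genes. Without the 3 brains highest in Sftpc, its r with Scgb1a1 was 0.85, with Hpx 0.65, with Hp 0.58, with Bhmt 0.57 and with Cbr2 0.51. Without the 3 brains lowest in Scgb1a1, its r with Sftpc was 0.93 and with Alb 0.56. Without those and the 3 highest, over 25 brains, r was 0.81 with Sftpc, 0.23 with Alb and between 0.22 and 0.25 with Serpina1a, Serpina1e and Kng1. These left-out sets were added after the data were seen. The relation of Scgb1a1 to Sftpc thus ran through the middle of the range, whereas r with the 4 liver transcripts depended largely on those 6 brains. Over all brains the Spearman rho of Scgb1a1 with these 4 lay between 0.44 (Serpina1a) and 0.48 (Serpina1e). Leaving out both ends of Scgb1a1 narrows its range, which by itself lowers r.

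Single brains show this difference. Cbr2 stood at 0.98, 1.39 and -0.35 in serum mice at 1 h and at 0.88 in replicate 1 of oleic acid at 3 h, so the 3 brains that led in the members led in Cbr2. Alb stood at 2.78 in replicate 2 of serum at 1 h, its highest level, but at -0.15 in replicate 1 of that group and at 0.25 in replicate 1 of oleic acid at 3 h. Of the 3 brains high in lung transcripts, 1 was therefore also the highest in Alb. At the low end Alb stood at -5.68 in replicate 2 of oleic acid at 1 h, at -6.09 in replicate 2 of serum at 4 h and at -3.0 in replicate 1 of serum at 24 h, the brains where Scgb1a1 was lowest. In the first 2 of these Alb was not well above background. Of all 25173 genes, 2.1% were highest in replicate 2 of serum at 1 h, and 17 had the same 3 brains on top as the members. These were Sftpc, Scgb1a1, Cbr2, Aqp5, Prx, Tpmt, Sox5 and Vash1, and otherwise clone or transcript identifiers. With Sftpc, Prx had an r of 0.53, Tpmt 0.43, Sox5 0.32 and Vash1 0.30.

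**Figure D3:**
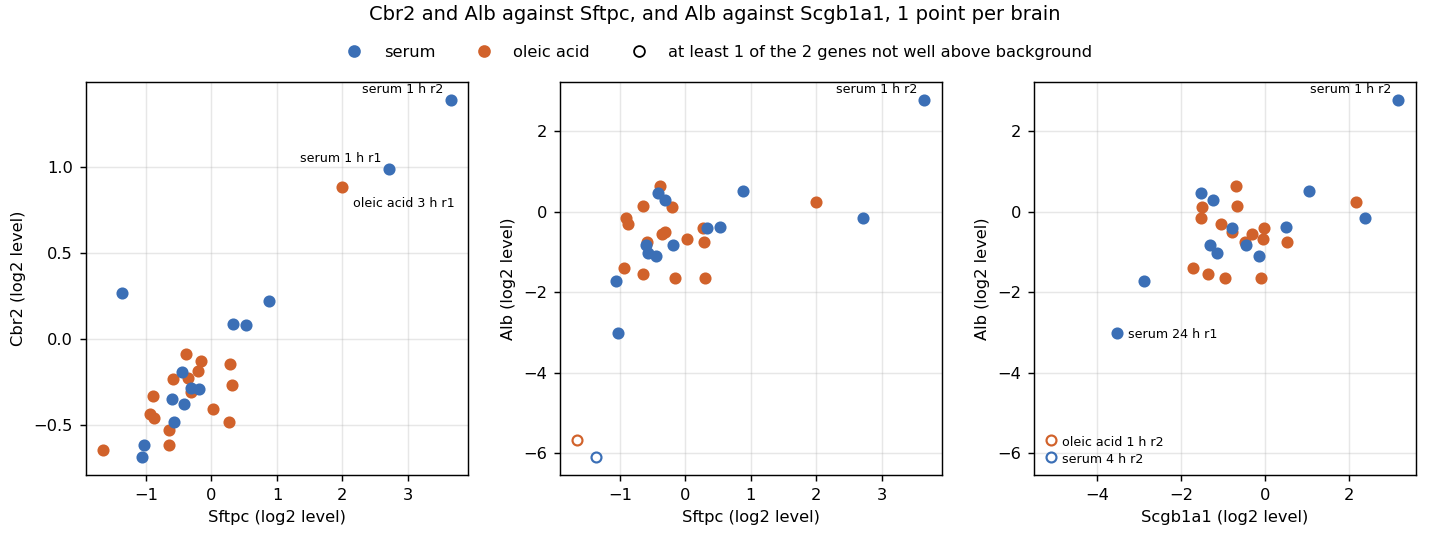
Cbr2 (left) and Alb (middle) against Sftpc, and Alb against Scgb1a1 (right), log2 levels with 1 point per brain, blue for serum and orange for oleic acid, open where at least 1 of both genes was not well above background. The 3 brains labelled at the left are highest in Cbr2, whereas Alb is high in 1 of them and lowest in the 2 brains where Scgb1a1 stands at -5.10.

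Other genes of the same lung cells followed Sftpc unevenly. The lists used here were drawn up with earlier results of these arrays known, and correlations are given as a description. Of 9 other club and airway secretory genes 6 were tested, at a median r of 0.51: Cbr2 at 0.88, Cyp2f2, a cytochrome P450 of club cells, at 0.72, the secretoglobin Scgb3a1 at 0.66 and Bpifb1 at 0.36. Of 13 other surfactant and alveolar type 2 genes 10 were tested, at a median of 0.13. Lamp3, Ctsh, Etv5 and Lpcat1, all above background in every brain, stood at 0.27, 0.20, 0.08 and 0.05. Abca3 and Chil1, also above background in every brain, stood at -0.12 and -0.07. Sftpd, the other surfactant collectin, stood at 0.66 and the protease gene Napsa at 0.62, above background in 18 and 17 brains, and Slc34a2, a phosphate carrier of type 2 cells, was above background in 0 brains. Of 8 alveolar type 1 genes 7 were tested, at a median of 0.16. The water channel gene Aqp5 stood at 0.65 and the receptor gene Ager at 0.56, but Emp2, Pdpn, Clic5 and Hopx between -0.05 and 0.23. Lamp3, Ctsh, Etv5, Lpcat1, Emp2, Pdpn, Clic5 and Hopx gave signal in every brain, with SDs between 0.14 (Lamp3) and 0.35 (Hopx). The SD of Sftpc was 1.12. How much of their signal came from brain cells was not tested. A low r of such a gene therefore does not show that its lung transcripts failed to follow Sftpc. Above 0.24, the 95th percentile of all genes tested, lay 5 of 6 club and airway, 3 of 10 type 2 and 2 of 7 type 1 genes. Cldn18 and Scgb3a2 were each above background in 1 brain. Of the type 2 list, the transcription factor genes Nkx2-1 and Foxa2 stood at 0.18 and 0.08, above background in 25 and 24 brains. Sftpd, Napsa, Slc34a2, Abca3, Chil1, Ager, Cldn18, Scgb3a2, Nkx2-1 and Foxa2 were picked out after their values had been seen.

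Markers of the other cells of the lung were mixed too. Of 6 alveolar macrophage genes 5 were tested, at a median r of 0.09, with Ear2 at 0.49 and the chitinase-like gene Chil3 at 0.45 but the scavenger receptor gene Marco at 0.02 and Krt79 at -0.17. The 3 tested of 4 lung stroma genes were Inmt, a methyltransferase gene, at 0.65, Hhip at 0.15 and Npnt at 0.14. Motile cilia genes, which the ependyma of the brain also expresses, had a median of 0.07, with Dnah5 at 0.24, Rsph1 at 0.20, Foxj1 at 0.17 and Tmem212 at -0.04. Above the 95th percentile of all genes lay 2 of 5 macrophage, 1 of 3 stroma and 1 of 6 cilia genes. Brain cell genes had a median of 0.07, with Cx3cr1 at 0.20, P2ry12 at 0.16 and Syt1 at 0.14.

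Among other organs, the liver list stood highest. Of 14 liver genes 11 were tested, at a median r of 0.64, with Cyp2e1 at 0.67, Ahsg at 0.64, Alb at 0.62 and Apoa2 at 0.22, and all 11 were highest in replicate 2 of serum at 1 h. Haemoglobin and other erythroid genes had a median of 0.30, with Hbb-b2 at 0.37 and Hba-a1 at 0.31. The heart list held 1 gene near the members, the myosin gene Myh6 at 0.71, beside Nppa at 0.24 and Tnni3 at -0.02, and the kidney list 1 gene, Kap, at 0.49. The lists of choroid plexus, neutrophil, pancreas, skeletal muscle, pituitary and skin had medians between -0.21 and 0.11. Above the 95th percentile of all genes lay 10 of 11 liver, 6 of 7 erythroid, 1 of 3 heart and 1 of 4 kidney genes, and 0 genes of the other organ lists.

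**Figure D4:**
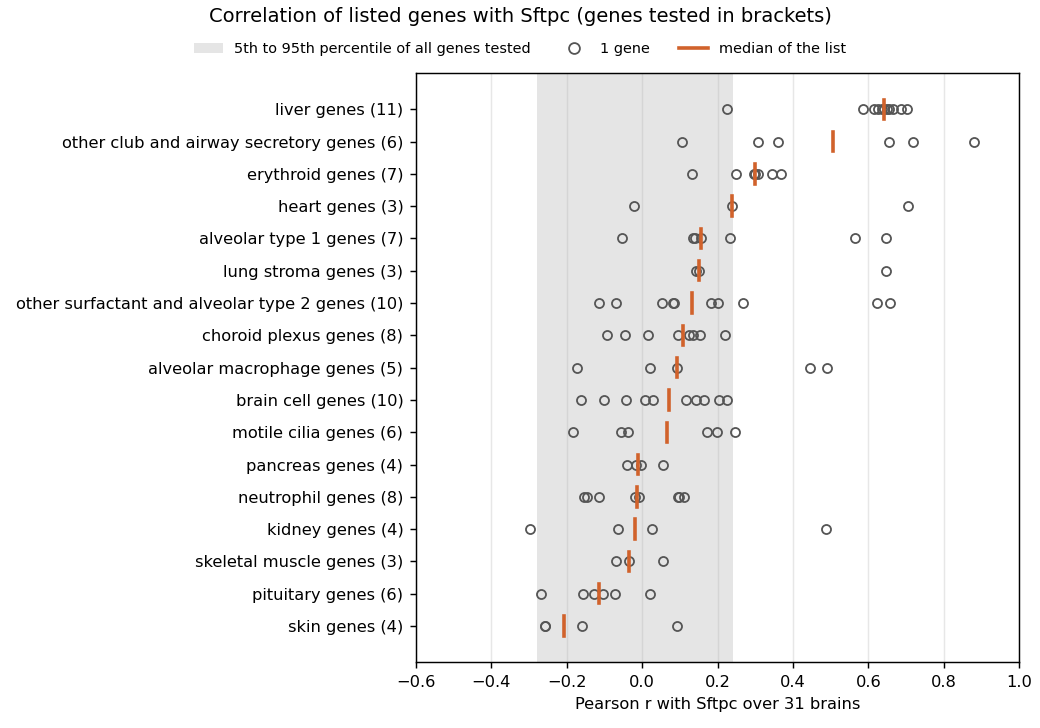
Pearson r with Sftpc over 31 brains (x axis) for each tested gene (circles) of 17 lists (rows, with the number of genes tested). Orange bars are list medians and the grey band holds 90% of all 25173 genes tested. The liver and club cell lists have the highest medians, 0.64 and 0.51.

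Sftpc was also set against 10 measures of the array and of other tissues over the 31 brains, again as a description, since its levels had been used to choose the members. Its r with the mean level of the liver genes was 0.69 and rho 0.53. That r was 0.56 without the 2 brains farthest from the median of Sftpc, 0.75 within slides and 0.55 within groups. Its r with the mean level of the alveolar type 1 genes was 0.60, but rho was 0.22 and r was 0.15 without the 2 farthest brains, so that relation rested on them. For the erythroid genes r was 0.32 and rho 0.22, and r was 0.03 without the 2 farthest brains. For the 75th percentile of the array r was 0.05, for the share of spots above background -0.03, and for the pituitary, neutrophil, choroid plexus, skeletal muscle and motile cilia genes between -0.10 and 0.11. The liver list spanned -5.58 to 0.57 in serum and -5.73 to -2.15 in oleic acid mice, and its part in the levels of the members was not tested.

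The comparison of oleic acid with serum asked whether the members differed in the brain during lung injury. Averaged over the 6 times, the difference (oleic acid minus serum, log2, ± SE) was -0.26 ± 0.34 for Sftpc, with a 95% interval from -0.98 to 0.45, and 0.29 ± 0.51 for Scgb1a1, from -0.76 to 1.35. Without the filter it was -0.26 ± 0.49 for Sftpb and -0.52 ± 0.56 for Sftpa1, fitted values that include groups with no mouse above background. No member passed, at limma's adjusted p of 0.998 for Sftpc and Scgb1a1 and 0.999 for the other 2, and the intervals leave room for differences of either sign. Of all genes 0% passed in either table, with 1148 of 25173 at an unadjusted p under 0.05. With slide as a fixed block the differences were -0.08 for Sftpc, 0.81 for Scgb1a1, -0.16 for Sftpb and -0.63 for Sftpa1, and none passed. These means are not wholly comparisons within slides, since at 18 h each treatment lay on its own slide. For Scgb1a1 that fit gave 1.58 ± 3.49 at 18 h. None of the listed genes of any cell type passed in this comparison.

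At 1 h, where all 6 mice lay on slide 1, the members were lower on average in oleic acid mice, and none passed the test. The difference was -2.74 ± 0.77 for Sftpc (unadjusted p = 0.00175, limma's adjusted p = 0.579) and -3.88 ± 1.13 for Scgb1a1 (adjusted p = 0.610). For Sftpb, above background in 2 of 3 serum and 1 of 3 oleic acid mice, it was -3.66 ± 1.1 (adjusted p = 0.876). Sftpa1 was above background in 2 of 3 serum and 0 of 3 oleic acid mice, and its serum mean was at least 4.64-fold the oleic acid mean (adjusted p = 0.974). In such a bound each mouse of the group with none above background takes the lowest signal well above background on its array. Dim mice of the other group keep their own signal, so the bound holds for the processed signals only. In neither Sftpc nor Scgb1a1 did every oleic acid mouse lie below every serum mouse, as in 5.8% of genes, since replicate 3 of serum lay within the range of the oleic acid mice. Of all genes 0% passed, with 1221 at an unadjusted p under 0.05. With normexp background correction the fitted differences were -1.22 for Sftpa1 and -1.40 for Sftpb.

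Replicate 3 of serum at 1 h decided these calls. Without it the difference was -4.0 for Sftpc (limma's adjusted p = 0.0177) and -5.30 for Sftpb (0.0450), which then passed, and -5.25 for Scgb1a1 (0.0609), which did not. Sftpa1, above background in 0 of 3 oleic acid mice, then passed too (adjusted p = 0.0300). In those fits 30 genes of the filtered and 16 of the unfiltered table passed. Without replicate 2 instead the difference was -1.87 for Sftpc, -3.0 for Scgb1a1 and -2.61 for Sftpb, and the 4 members had adjusted p-values of 0.994 and above. For the surfactant genes the contrast at 1 h is mainly that of the 2 high serum brains, so it is no separate evidence beside their levels. For Scgb1a1 it also held replicate 2 of oleic acid, a brain low in both Scgb1a1 and Alb. Without that brain the Scgb1a1 difference was -2.57, and the part of its liver transcripts in the result was not tested.

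At 4 h, where all 5 mice lay on slide 4, Scgb1a1 and Sftpc were higher on average in oleic acid mice. Scgb1a1 differed by 3.50 ± 1.26 (unadjusted p = 0.0114, limma's adjusted p = 0.996) and Sftpc by 0.77 ± 0.86 (adjusted p = 0.996). No member passed, and 0.00397% of filtered and 0.00278% of unfiltered genes did. Every oleic acid mouse stood above every serum mouse in Sftpc and Scgb1a1, as in 9.45% of genes. Sftpa1 and Sftpb were each above background in 0 of 2 serum and 1 of 3 oleic acid mice. For Sftpa1 the bound was 1.28-fold with dim oleic acid mice at their own signals, so no direction is given (limma's adjusted p = 0.994). For Sftpb no bound above 1 could be set and no direction is given (adjusted p = 0.996). The serum side held 1 of the brains low in both Scgb1a1 and Alb, without which the Scgb1a1 difference was 2.39, and the part of that brain's liver transcripts in the result was not tested.

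At the other times no member passed, and 0% of all genes did at 1.5, 3, 18 and 24 h. At 1.5 h the differences ran from -1.04 (Sftpa1) to -0.73 (Sftpc), and in slide 2 alone, with 1 mouse a group, they were -0.20 for Sftpc and -0.54 for Scgb1a1. At 3 h they were 0.60 for Sftpc, 0.69 for Scgb1a1 and -1.27 for Sftpa1, and within slide 3 the first 2 were 0.85 and 1.3. Without replicate 1 of oleic acid, the high brain of that group, these turned to -0.25 for Sftpc and -0.53 for Scgb1a1. At 18 h the differences were -0.15 for Sftpc, 0.61 for Scgb1a1 and -0.41 for Sftpa1, and every oleic acid mouse stood above every serum mouse in Scgb1a1, as in 22.9% of genes. At 18 h each treatment lay on its own slide, and the slide cannot be told apart from the treatment. At 24 h they were 0.68 for Sftpc and 1.73 for Scgb1a1, and within slide 5, which held 1 serum mouse, 0.91 and 2.92. That serum mouse was replicate 1, among the brains lowest in both Scgb1a1 and Alb. Without it the differences at 24 h were 0.45 for Sftpc and 0.53 for Scgb1a1. Sftpb was above background in no serum mouse at 3, 18 and 24 h, and at 3 and 18 h in 1 oleic acid mouse each. Its bounds of 1.05-fold at 3 h and 1.12-fold at 18 h include the signals of dim oleic acid mice, so no direction is given. At 24 h neither Sftpb nor Sftpa1, also above background in no serum mouse, had a bound above 1, so no direction is given.

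A test of whether the effect differed between times was not passed by any member. The F value was 4.47 for Scgb1a1 (unadjusted p = 0.00599) and 2.87 for Sftpc (0.0390), both at limma's adjusted p of 0.837, and 0% of genes passed, with 1371 at an unadjusted p under 0.05. Without the filter the adjusted p was 0.910 for Sftpa1 and Sftpb.

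**Figure D5:**
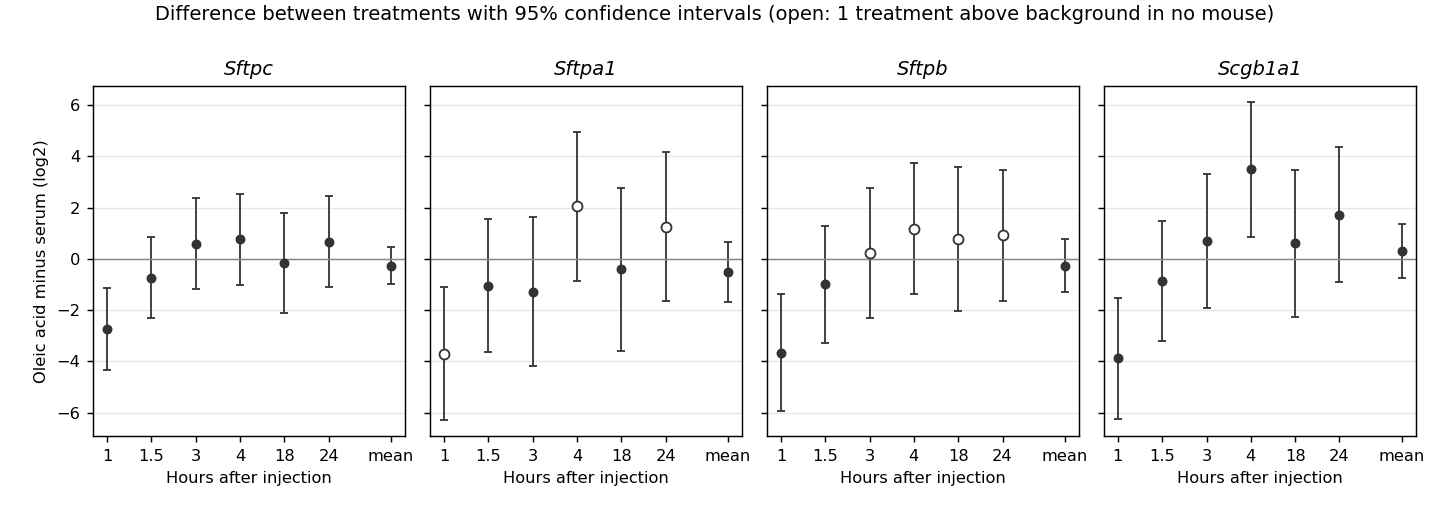
Oleic acid minus serum difference (y axis, log2) at each time and averaged over the 6 times (x axis, hours after injection and mean) for the 4 members. Points are limma estimates and bars 95% confidence intervals, not adjusted for the number of genes. Open points mark fitted values where 1 treatment had no mouse above background, so that they are no measured difference. The intervals exclude 0 at 1 h and, for Scgb1a1, at 4 h, and none of these differences passed the adjusted test.

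Time within the control mice was examined last. The serum means of Scgb1a1 were 1.42 ± 2.40 at 1 h, 0.47 ± 0.59 at 1.5 h, -0.98 ± 0.76 at 3 h, -3.99 ± 1.57 at 4 h, -1.02 ± 0.32 at 18 h and -2.34 ± 1.69 at 24 h (SD, n = 3, 3, 2, 2, 2 and 2). Their differences passed limma's F-test narrowly (F = 4.68, adjusted p = 0.0481), as those of 10.4% of genes did, and the members had been listed for their spread between these mice. Sftpc did not pass (adjusted p = 0.0882), and without the filter, where 3.21% of genes passed, neither Sftpb (0.163) nor Sftpa1 (0.292) did. In oleic acid mice no member passed, at adjusted p-values of 0.563 for Scgb1a1, 0.845 for Sftpc, 0.890 for Sftpb and 0.80 for Sftpa1, where 7.03% of filtered and 2.65% of unfiltered genes did.

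The Scgb1a1 call in serum mice was not stable. Time and slide partly overlapped in serum mice. They lay on slide 1 at 1 h, slides 1 and 2 at 1.5 h, slide 3 at 3 h, slide 4 at 4 and 18 h, and slides 2 and 5 at 24 h. The adjusted p was 1.00 with slide as a fixed and 0.306 with slide as a random block. Leaving out 1 brain of the 31 at a time moved it between 0.0212 and 0.149 and ended the call in 23 cases, most strongly without replicate 2 of serum at 4 h. Without replicate 3 of serum at 1 h the test was passed by Sftpc (adjusted p = 0.00781), Sftpb (0.0370) and Sftpa1 (0.0397) too. Of the 37 other tested genes of the 6 lung lists 5 passed, or 13.5%, beside 10.4% of all genes: Aqp5 (adjusted p = 0.0267), Inmt (0.0293), Npnt (0.0366), Chil3 (0.0465) and Krt79 (0.0194). Ltf and Camp of the neutrophil list and Aqp1 of the choroid plexus list passed too.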

How the data were processed

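Whole-brain RNA of 31 mice was measured on 31 single-colour arrays. Per the file headers, the scans were read with Agilent Feature Extraction 10.5.1.1, and the authors deposited Cy3 intensity per spot (processed, mean and local background intensity). Other deposited columns are flags of 0 or 1 that mark a spot as above background, saturated or uneven. The series' deposited table holds log2 values, with a median of 6.35 on an array, and correlated above 0.99 with the log2 mean intensity. Its normalization is not given in the sources used here.

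Each array's 75th percentile was subtracted from its log2 processed intensities. Spots marked as uneven, up to 107 per array, were dropped, none was saturated, and the spots of a probe were averaged. Probes entered the filtered table if every array of 1 or more of the 12 groups had them well above background and all 31 arrays measured them, and the probe with the highest mean stood for a gene. Of 55681 probes, 26582 were named by accession, 2602 by symbol, 492 by synonym, and 26005 kept the name in the file. limma 3.58.1 (R 4.3.3) fitted 12 group means (19 residual degrees of freedom), with Benjamini-Hochberg adjustment over all genes and a threshold of 0.05. Sftpa1 and Sftpb, left out by the filter, come from the same fit without it. The fit was also run on simulated arrays with independent normal noise and no slide effects. That run therefore says nothing about slides or single outlying brains. Precision is limited by the number of arrays and, for dim probes, by background; nothing in the labels links mice of different groups.

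The members and the gene lists were chosen with earlier results of these data known. Named are the members, the 5 genes that correlate best with each (clone identifiers passed over), up to 4 genes a list with the most brains above background, and listed genes past a test. Alternatives were other background corrections, normalizations, filters, probe rules and blocks, and each array left out. A bound takes, per array of the group with no mouse above background, the higher of the lowest signal well above background and the probe's own. Arrays of the other group keep the probe's own signal.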

Additional observations from a re-analysis of the deposited data

How the results depend on the processing

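Of the alternatives to each treatment, time and correlation value of the 4 members, 1751 kept direction and call, 30 lost a call, 7 gained one and 13 changed sign. Many could not change sign, since leaving out an array of another time leaves the difference at a given time as it was. Only the Scgb1a1 call of time in serum mice could be lost, so these counts do not measure stability. The Scgb1a1 F-test of time in serum mice was lost with normexp correction (adjusted p = 0.0551), quantile normalization (0.0543), no filter (0.0817), slide as a fixed (1.00) or random (0.306) block, scan date as a block (0.0517) and eBayes with trend and robust options (0.0585). Over single arrays left out it ranged from 0.0212 to 0.149, that of Sftpc from 0.00781 to 0.277, of Sftpa1 from 0.0397 to 0.474 and of Sftpb from 0.0370 to 0.408. Sftpb gained it with the deposited value table (0.0482). With normexp correction the sign changed for Sftpa1 at 24 h (-0.0092) and for Sftpb at 1.5 h (0.0027), 3 h (-0.13), 18 h (-0.021) and 24 h (-0.046), and with the mean of all probes for Sftpb at 3 h (-0.15). With single arrays left out, the difference at 3 h ranged from -0.25 to 1.2 for Sftpc, from -0.53 to 1.32 for Scgb1a1 and from -0.94 to 0.98 for Sftpb, and at 18 h from -0.47 to 0.17 for Sftpc and from -0.98 to 0.17 for Sftpa1. All of these signs belong to differences that did not pass, and those of Sftpb at 3, 18 and 24 h and of Sftpa1 at 24 h to groups with no serum mouse above background. At 1 h the range was -4.0 to -1.87 for Sftpc, -5.25 to -2.57 for Scgb1a1, -5.77 to -2.42 for Sftpa1 and -5.30 to -2.61 for Sftpb. The cause of the changes was not tested, beyond the array or block that each setting names.

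Deviations of mice with the same replicate number correlated over 0.1 in 3 of 14 pairs (-0.62 to 0.39), so the numbers name samples only. With replicate number as a block the mean difference was -0.26 for Sftpc, 0.37 for Scgb1a1, -0.49 for Sftpa1 and -0.15 for Sftpb, and no call of a treatment difference changed. The F-tests of time could not be fitted with that block, which is nested in time. The filter of 24 arrays above background was run for Sftpc and Scgb1a1 only, as it leaves out Sftpa1 and Sftpb. Low signal limits Sftpa1 and Sftpb, which were above background in 11 brains each.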
